A study of Mus musculus with 6 samples.

Results

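The genes described here are 10 genes of the growth hormone and STAT5 axis of the liver, read in 6 mouse liver tumors. They were taken by symbol from a table of 34745 genes, and all 10 were found and passed the filter on low counts: *Ghr*, *Stat5b*, *Igf1*, *Igfals*, *Socs2*, *Cish*, *Mup3*, *Mup20*, *Bcl6* and *Cux2*. RNA-seq was performed on 3 tumors of *Prmt3* f/f mice, which carry floxed alleles of the arginine methyltransferase gene *Prmt3*, and on 3 tumors of *Prmt3* LKO mice, in which albumin-Cre removes the floxed sequence in hepatocytes. The labels call these groups WT and Prmt3-KO. Both groups received diethylnitrosamine (DEN, 25 mg/kg) at 2 weeks of age and, from 6 weeks, repeated 10% CCl4 (0.5 ml/kg in oil), and both were killed at 26 weeks. The study states that its animals were male. Each tumor is named here by the number in its label (f/f 7, 66 and 71; LKO 92, 93 and 94). The labels do not tie the 6 tumors to separate mice, so the tests measure the spread between tumors. No untreated liver or tissue beside a tumor was used here, so the values compare tumors with each other only. Albumin-Cre acts in hepatocytes and in cells derived from them, and the source of the *Prmt3* reads left in LKO tumors was not tested.

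Growth hormone from the pituitary binds its receptor, encoded by *Ghr*, on the hepatocyte. The bound receptor activates the kinase JAK2, which phosphorylates STAT5B, and STAT5B then enters the nucleus and switches on target genes. In the male mouse the hormone is released in pulses, and this pattern sets many differences between the male and the female liver. *Igf1* and *Igfals* encode a hormone and its partner in blood, *Socs2* and *Cish* encode inhibitors that dampen the signal, and *Mup3* and *Mup20* encode major urinary proteins, which are made in large amounts by the male liver. *Bcl6* and *Cux2* encode repressors, of which *Bcl6* is higher in male liver and *Cux2* in female liver.

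The total count was between 18440244 and 27976598 reads per tumor. *Prmt3* was lower in all LKO tumors (log2 fold change −1.55, SE 0.29), with an adjusted p of 0.592 in the quasi-likelihood test of edgeR. The 12 hepatocyte markers, among them *Alb* and *Hnf4a*, had at least 3598 counts each in every tumor, so hepatocyte transcripts were present in all 6. The summed level of 12 leukocyte markers did not overlap between the groups. It was 145 to 198 CPM (read counts scaled to a common library size) in f/f tumors and 69.6 to 108 CPM in LKO tumors, 9 of 12 were lower in every LKO tumor than in any f/f tumor, beside 6.59% of all genes tested, and none was at 0. None of the 12 passed the adjusted test of edgeR (smallest adjusted p 0.592), and 7 were lower at an unadjusted p under 0.05, beside 4.37% of all genes tested. The 12 macrophage markers summed to 809 to 1350 CPM in f/f tumors and 579 to 782 CPM in LKO tumors, and none was at 0. Of these 12, 5 were lower in every LKO tumor, beside 6.59% of all genes tested. At an unadjusted edgeR p under 0.05, 7 were lower, beside 4.37% of all genes, and none passed the adjusted test.

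STAT5 dimers are known to bind the motif TTCNNNGAA, which is its own reverse complement, so that one search reads both strands. RefSeq promoter windows of GRCm38.p6 (250 bases before to 50 bases after a transcript start, 300 bases in all) were searched for it. For 8 of the 10 genes 14 windows were found, and *Socs2* and *Mup20* had none. Windows of 3 genes held the motif, where it is shown in capitals with the bases around it. Among all genes, 9.55% of 27025 held it in at least 1 window, and among all windows 8.3% of 32851 held it. A match is a description of the letters and does not show binding. *Cish*, which encodes a feedback inhibitor, is shown because its window held 2 copies that start at bases 1 and 12 of the transcript, counted from 1 at its start, at chr9:107296649-107296678 on the plus strand, in an exonic, untranslated stretch of the GENCODE gene.
Cish: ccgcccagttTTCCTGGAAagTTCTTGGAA
*Bcl6* is shown because it is the gene whose level separated the groups. Its first window held 1 copy, which starts at base −118 relative to the transcript start, at chr16:23988952-23988980 on the minus strand and outside the gene.
Bcl6 first window: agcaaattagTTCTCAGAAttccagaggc
Its second window, in an intron, held 3 copies at chr16:23981353-23981461 on the minus strand, which start at bases −168, −122 and −88. Of all windows, 0.0335% held 3 or more copies and 0.457% held 2 or more.
Bcl6 second window: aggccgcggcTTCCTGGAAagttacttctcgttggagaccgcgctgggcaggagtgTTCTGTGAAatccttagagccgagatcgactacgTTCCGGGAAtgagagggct
*Igfals*, which encodes the acid-labile subunit, is shown as a target gene that was lowest in the same 2 tumors as *Igf1*. It held 1 copy in each of 2 windows, at bases −236 and −58 from their transcript starts, at chr17:24877598-24877626 and chr17:24878163-24878191 on the plus strand. Both lie upstream of the gene as the deposited table bounds it and in an intron of the longer GENCODE gene.
Igfals first window: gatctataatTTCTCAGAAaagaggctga
Igfals second window: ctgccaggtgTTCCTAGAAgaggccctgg

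The receptor and its target genes *Igf1*, *Igfals* and *Mup3* varied several-fold between tumors, and in all 4 the lowest tumors were f/f 7 and LKO 93, which belong to different genotypes. *Stat5b* varied little. *Bcl6* was lower in all LKO tumors, and the other 9 genes overlapped between the groups, where 12.2% of all genes did not overlap. None of the 10 genes passed the adjusted test. All levels that follow are CPM on the TMM-scaled library size and can be compared between tumors for 1 gene, not between genes.

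**Figure D1:**
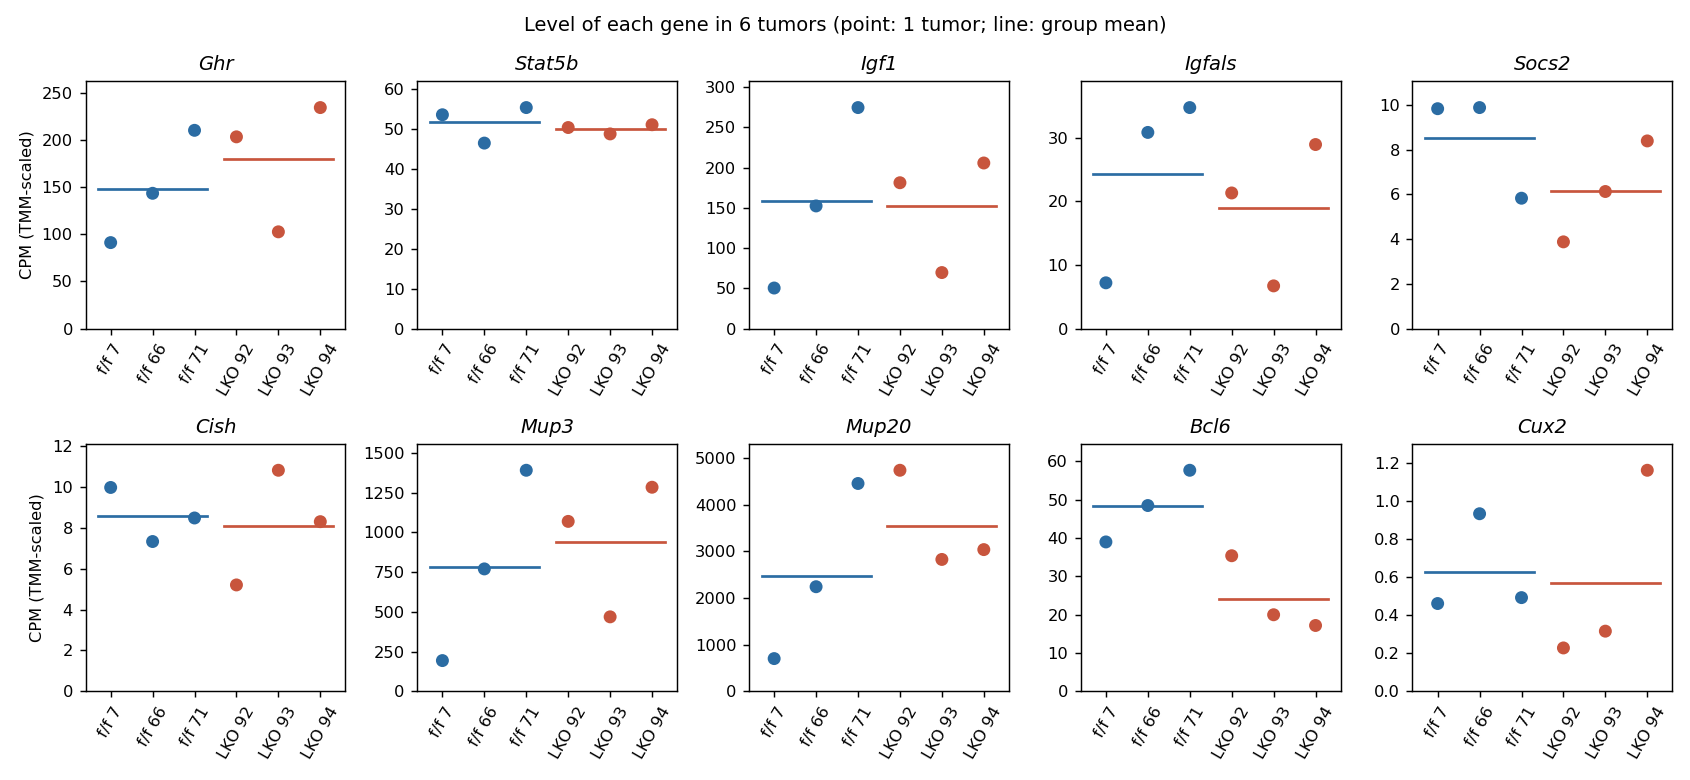
Level of each gene in the 6 tumors, in CPM (y axis, linear and starting at 0), with 1 point per tumor (blue, *Prmt3* f/f; red, *Prmt3* LKO) and a line at each group mean. *Ghr*, *Igf1*, *Igfals* and *Mup3* have their lowest points at f/f 7 and LKO 93, *Stat5b* is nearly level between 46.5 and 55.4 CPM, and for *Bcl6* all LKO points lie under all f/f points.

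*Ghr* (ENSMUSG00000055737, chr15:3317760-3583492, minus strand, GRCm38), the growth hormone receptor, was at 91.2, 143 and 210.1 CPM in f/f 7, 66 and 71 and at 203, 103 and 234 CPM in LKO 92, 93 and 94. The highest tumor was 2.57 times the lowest, and the lowest tumors of both groups were close to each other. The group means were 148 ± 59.6 (SD, n = 3) in f/f and 180.0 ± 68.8 (SD, n = 3) in LKO tumors. The log2 fold change of LKO over f/f was 0.28 (SE 0.38), less than the spread between tumors, with an adjusted p of 0.960 in edgeR and an exact two-sided permutation p of 0.6. With 3 tumors against 3 the smallest permutation p is 0.1.

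*Stat5b* (ENSMUSG00000020919, chr11:100780731-100850724, minus strand), the main STAT5 of the liver, was at 53.6, 46.5 and 55.4 CPM in f/f tumors and at 50.4, 48.8 and 51.1 CPM in LKO tumors. Its levels lay within 1.19-fold of each other, the narrowest range of the 10 genes. Between the groups it differed by a log2 fold change of −0.05 (SE 0.13) with an edgeR adjusted p of 0.987. *Ghr* and *Stat5b* therefore had different ranges, 1.36 and 0.25 on the log2 scale, where the median range of all 13892 genes tested was 0.76.

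*Igf1* (ENSMUSG00000020053, chr10:87858265-87937042, plus strand), the insulin-like growth factor that the liver secretes in response to growth hormone, was at 50.5, 152 and 275 CPM in f/f tumors and at 181, 69.7 and 206 CPM in LKO tumors. Both groups spanned low and high tumors, and f/f 71 was 5.43 times f/f 7. The means were 159 ± 112 and 152 ± 72.5 CPM (SD, n = 3 each), and the log2 fold change was −0.06 (SE 0.60), with an edgeR adjusted p of 0.996 and an exact permutation p of 0.9. The opposite-strand gene *Igf1os* overlaps *Igf1* and had at most 4 counts in any tumor, which is too few to move the level of *Igf1*.

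*Igfals* (ENSMUSG00000046070, chr17:24878770-24882008, plus strand) encodes the acid-labile subunit, which holds IGF1 in a long-lived complex in blood. It was at 7.20, 30.8 and 34.7 CPM in f/f tumors and at 21.3, 6.72 and 28.9 CPM in LKO tumors. LKO 93 and f/f 7 stood apart from the other 4 tumors, whose levels were between 21.3 and 34.7 CPM. LKO over f/f gave a log2 fold change of −0.35 (SE 0.65), with an edgeR adjusted p of 0.972 and an exact permutation p of 0.5.

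*Mup3* (ENSMUSG00000066154, chr4:62083476-62087342, minus strand) had the widest range of the 10 genes. It was at 194, 770.1 and 1390.2 CPM in f/f tumors and at 1069, 469 and 1284 CPM in LKO tumors. The order of the tumors was the same as for *Igf1*, from f/f 7 as the lowest to f/f 71 as the highest, with a 7.17-fold difference between them. The log2 fold change was 0.26 (SE 0.66), with an edgeR adjusted p of 0.984.

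*Mup20* (ENSMUSG00000078672, chr4:62050234-62054158, minus strand), also known as darcin, was at 703, 2243 and 4454 CPM in f/f tumors and at 4737, 2827 and 3038 CPM in LKO tumors. It shared the low level in f/f 7 with *Mup3* but not that in LKO 93, which lay above f/f 66. For LKO over f/f the log2 fold change was 0.52 (SE 0.59), with an edgeR adjusted p of 0.948 and an exact permutation p of 0.4. *Mup20* shares sequence with a pseudogene, and 31.1% of its 779 windows of 150 bases occur in *Mup-ps19*, which had 340 to 3271 counts. None of the 1215 windows of *Mup3* occurs in another *Mup* gene, so reads of *Mup3* are less open to such sharing.

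The 21 *Mup* genes of the table without the pseudogenes took 0.10%, 0.30% and 0.615% of all counts in f/f 7, 66 and 71 and 0.562%, 0.345% and 0.434% in LKO 92, 93 and 94. The lowest and the highest share were both in f/f tumors. *Mup3* and *Mup20* together held 92.2% to 99.4% of these counts. In f/f 7, where the family was lowest, the other *Mup* genes made up the remainder with 1639 counts, against 431 counts in LKO 93. Most other *Mup* genes share windows of 150 bases with a close copy, 52.5% for *Mup1* and 67.1% for *Mup7*, and their single values are uncertain.

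*Socs2* and *Cish* did not show the low levels of f/f 7 and LKO 93. *Socs2* (ENSMUSG00000020027, chr10:95385362-95417180, minus strand), which targets the receptor for removal, was at 9.83, 9.88 and 5.83 CPM in f/f tumors and at 3.88, 6.13 and 8.39 CPM in LKO tumors. Here f/f 7 was among the highest and LKO 92 was the lowest, and the groups overlapped. The log2 fold change was −0.47 (SE 0.33), with an edgeR adjusted p of 0.892 and an exact permutation p of 0.3.

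*Cish* (ENSMUSG00000032578, chr9:107296026-107302784, plus strand), an SH2 domain protein that is induced by STAT5 and acts against it, was at 9.96, 7.32 and 8.47 CPM in f/f tumors and at 5.20, 10.8 and 8.29 CPM in LKO tumors. Its highest levels were in LKO 93 and f/f 7, the tumors with the lowest *Ghr*, *Igf1*, *Igfals* and *Mup3*. The groups differed by −0.08 on the log2 scale (SE 0.28), with an edgeR adjusted p of 0.988. The opposite-strand genes within its span, *Gm17040* and *Gm17041*, had at most 6 counts.

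*Bcl6* (ENSMUSG00000022508, chr16:23965052-23988852, minus strand), a repressor that binds at many STAT5 sites in liver, was at 39.0, 48.5 and 57.7 CPM in f/f tumors and at 35.4, 20 and 17.2 CPM in LKO tumors. Every LKO tumor was lower than every f/f tumor, though LKO 92 was close to f/f 7. The means were 48.4 ± 9.34 and 24.2 ± 9.79 CPM (SD, n = 3 each). The log2 fold change was −1.0 (SE 0.29) with an unadjusted p of 0.00923 in edgeR, an adjusted p of 0.606 over all genes and an exact permutation p of 0.1, the smallest that the design allows. *Bcl6* is also expressed in lymphocytes, and the leukocyte and macrophage markers were lower in LKO tumors too; their part in the difference was not tested. In bulk tumors, fewer cells of a type and less RNA per cell cannot be told apart. LKO 93 was low in *Bcl6* as in *Ghr*, but f/f 7 was not, and LKO 94, which was lowest in *Bcl6*, was highest in *Ghr*.

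*Cux2* (ENSMUSG00000042589, chr5:121856366-122050102, minus strand), a repressor of male-biased genes that is high in female liver, was near the limit of detection. It had 10, 20 and 14 counts in f/f tumors and 4, 7 and 23 counts in LKO tumors, or 0.228 to 1.16 CPM. The groups overlapped, with both the lowest and the highest tumor in the LKO group. On the log2 scale LKO tumors differed by −0.14 (SE 0.68), with an edgeR adjusted p of 0.993. No difference in *Cux2* was detectable beyond the spread between tumors and these few counts.

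**Figure D2:**
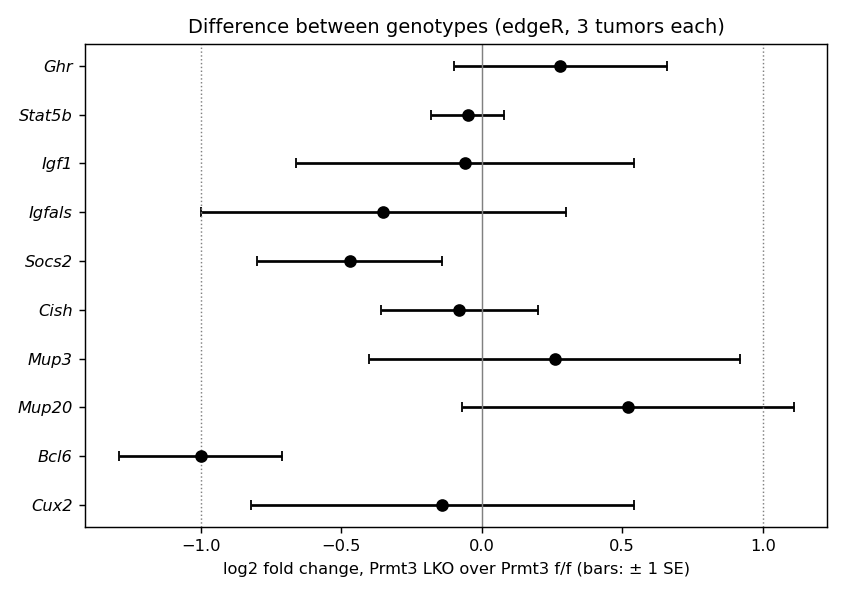
Log2 fold change of *Prmt3* LKO over *Prmt3* f/f tumors for each gene (x axis) with bars of ± 1 SE, derived from the F statistic of edgeR, 3 tumors in each group, and dotted lines at the fold limits of 2 and 0.5. *Bcl6* lies at −1.0, and the other 9 genes lie between −0.47 (*Socs2*) and 0.52 (*Mup20*).

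Of the 10 genes, 7 had a negative and 3 a positive log2 fold change, and the median was −0.07 beside 0.0 for all 13892 genes tested. Calling a gene took both an edgeR adjusted p under 0.05 and a fold change of 2 or more, or of 0.5 or less. Neither any of the 10 nor any other gene met these limits, a background of 0.0% in each direction. DESeq2 and the exact test of edgeR also called none of the 10. At an unadjusted p under 0.05, 1 of the 10 was lower (*Bcl6*) and none was higher, where 4.37% of all genes were lower and 2.2% were higher (6.56% in either direction). *Bcl6* also met the fold limit at this p, as did 1.77% of all genes in the lower and 0.317% in the higher direction. Likewise 1 of the 10 was lower in every LKO tumor, beside 6.59% of all genes, and none was higher in every LKO tumor, beside 5.57%. Groups that did not overlap were thus found for 1 of 10 genes and for 12.2% of all genes, and these counts do not set the 10 genes apart.

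Several of the 10 genes had a wide range between tumors of the same genotype. The median range across the 6 tumors was 1.85 on the log2 scale for the 10 genes and 0.76 for all genes tested. *Ghr*, *Igf1*, *Igfals* and *Mup3* had f/f 7 and LKO 93 as the lowest pair, 4 of 10 genes, where 11.5% of all genes tested had this pair as the lowest with TMM and 7.99% with the library size alone. This pair was chosen after the values were seen, so the count is a description with no test. The depth of f/f 7 (21040087 reads) and of LKO 93 (21299186 reads) lay within the range of the other tumors. Hepatocyte markers summed to 199437 CPM in f/f 7 and 203502 CPM in LKO 93, between the lowest (172782) and the highest (229566) tumor, but most of this sum is *Alb*. Of the 12 markers, 5 had f/f 7 and LKO 93 as the lowest pair. Among them, named after their values were seen, *Cyp2e1* was at 166 and 244 CPM in these tumors and *Cps1* at 957 and 1155 CPM. All other tumors were higher in these 2 genes. *Hnf4a*, also one of the 5, differed little, at 667 and 622 CPM in f/f 7 and LKO 93 against 683 to 759 CPM in the others. The rest of the 12 markers did not have this lowest pair. Of these, *Apoa1* (20085 CPM) and *Fgb* (8118 CPM) were even highest in f/f 7. The list of liver tumor and fetal liver markers summed to its highest levels in these 2 tumors, with 2331 CPM in f/f 7 and 1556 CPM in LKO 93 against 689 to 1019 CPM in the others, and none of its 10 genes was at 0. A large part of both sums is 1 gene, *Ly6d*, at 1242 CPM in f/f 7 and 528 CPM in LKO 93 after TMM scaling. Not every gene of the list followed the sum, and *Gpc3* was highest in f/f 66 (358 CPM). The part of cells with these markers in the low levels was not tested.

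**Figure D3:**
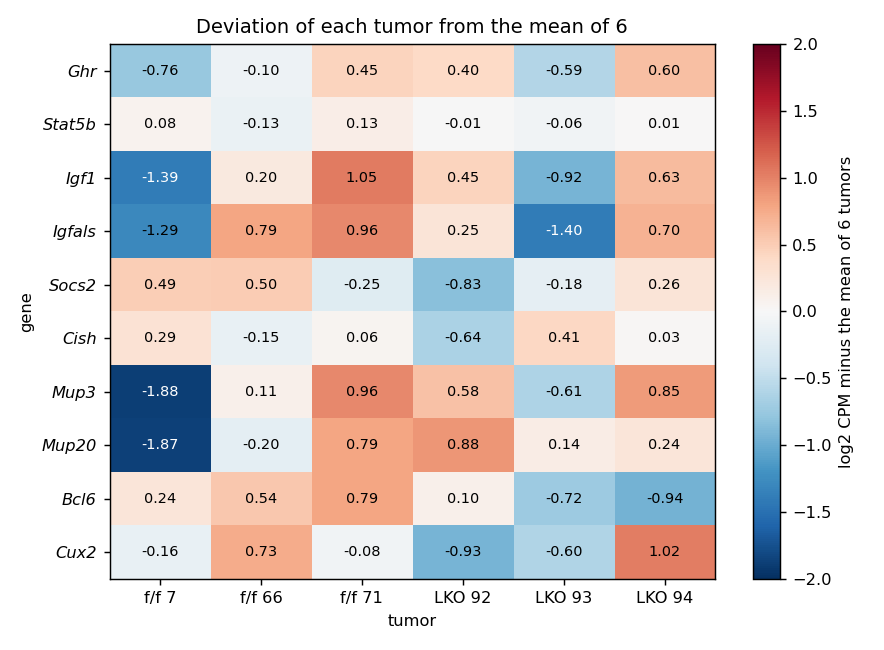
Log2 CPM of each gene (rows) in each tumor (columns) minus the mean of the 6 tumors, with blue for lower and red for higher. The columns of f/f 7 and LKO 93 are blue for *Ghr*, *Igf1*, *Igfals* and *Mup3*, and the rows of *Socs2* and *Cish* do not follow them.

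In all, 7 pairs of genes were compared across the 6 tumors, pooled over genotypes because 3 tumors are too few for a correlation within a group. *Ghr* and *Igf1*, the receptor and its main hormone target, varied together (Pearson r = 0.95, exact permutation p = 0.00417, adjusted over 7 pairs 0.0292). Spearman's rho was 0.94 (exact permutation p = 0.0167, adjusted 0.117). Without f/f 7 and LKO 93, the tumors farthest from the median of *Ghr*, r was 0.68 and rho 0.8, with an exact permutation p of 0.375 for r. The pair did not pass this test in the 4 tumors left, which allow only few orders, so the result rests on all 6 tumors. The pairs were chosen with earlier results of these data known, so their p-values are given as a description. Other genes followed *Ghr* more closely, up to *Apol9a* with r = 0.995, so a high r is not particular to this pair.

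The other pairs did not pass the adjustment. *Igf1* and *Igfals* had r = 0.95 (exact permutation p = 0.0222, adjusted 0.0583) and rho = 0.77 (permutation p = 0.103), and r was 0.46 without f/f 7 and LKO 93. *Mup3* and *Mup20* had r = 0.90 (exact permutation p = 0.025, adjusted 0.0583) and rho = 0.77 (permutation p = 0.103), and r was 0.67 without the same tumors. *Ghr* and *Igfals* had r = 0.87 (exact permutation p = 0.0361, adjusted 0.0632) and rho = 0.66 (permutation p = 0.175), and r was −0.14 without them. For *Ghr* and *Igfals* the sign of r thus depended on the 2 low tumors. For *Igf1* and *Igfals* and for *Mup3* and *Mup20*, r stayed positive without them.

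The signal transducer and the inhibitors showed no such relation. *Stat5b* and *Socs2* had r = −0.15 (exact permutation p = 0.747) and rho = −0.31 (permutation p = 0.564). *Socs2* and *Cish* had r = 0.54 (exact permutation p = 0.289) and rho = 0.14 (permutation p = 0.803). The repressors *Bcl6* and *Cux2* had r = −0.12 (exact permutation p = 0.814) and rho = 0.03 (permutation p = 1.0). With 6 tumors, a missed threshold does not show that these genes are unrelated.

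**Figure D4:**
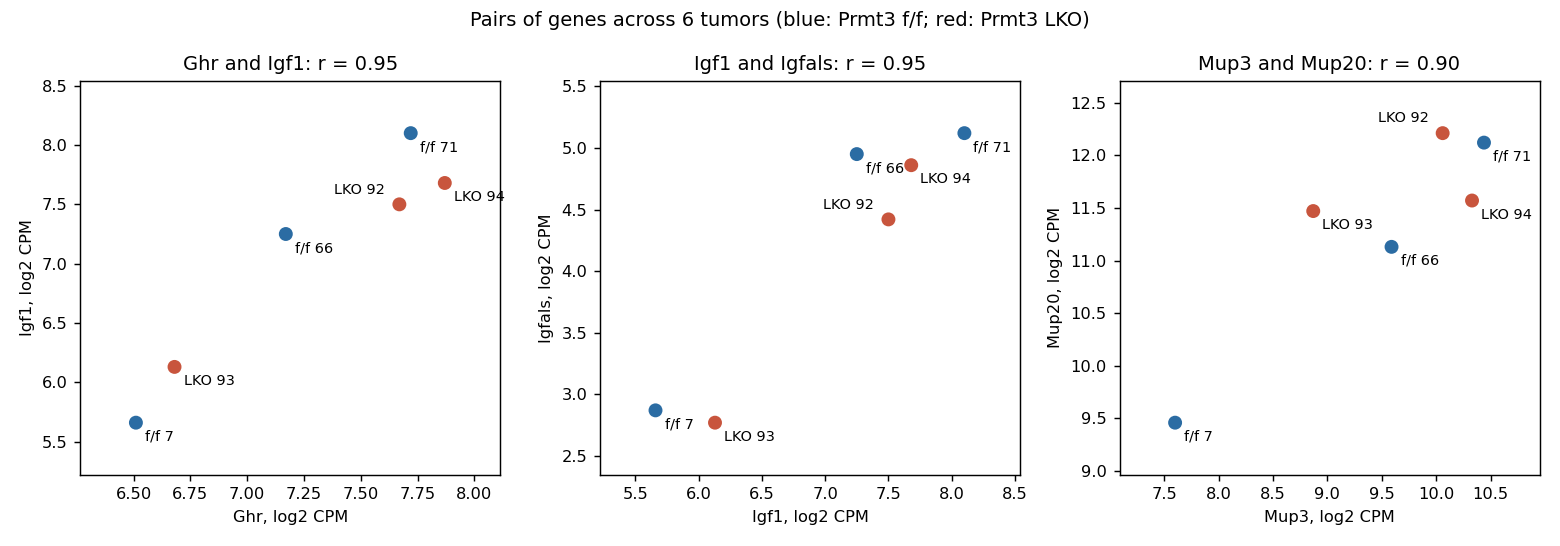
Log2 CPM of *Igf1* against *Ghr*, of *Igfals* against *Igf1* and of *Mup20* against *Mup3*, with 1 point per tumor (blue, *Prmt3* f/f; red, *Prmt3* LKO) and Pearson's r over 6 tumors in each title. In the first 2 panels f/f 7 and LKO 93 lie at the low end, and in the third f/f 7 alone lies far below the others.

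Among 12135 genes with a mean of at least 1 CPM, those whose log2 CPM followed *Igf1* most closely over the 6 tumors were *Sult2a8* (Pearson r = 0.998), *Pipox* (0.996), *Lcat* (0.994), *Slc7a2* (0.994) and *Tle2* (0.993). *Sult2a8*, a liver sulfotransferase of the male-biased list, was at 17.2, 76.5 and 152 CPM in f/f tumors and at 97.8, 24.3 and 112 CPM in LKO tumors, with the same order of tumors as *Igf1*. *Lcat*, which esterifies cholesterol in plasma, was at 126, 212 and 296 CPM in f/f tumors and at 239 (LKO 92), 136 and 241 CPM in LKO tumors.

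For *Ghr* the closest genes were *Apol9a* (r = 0.995), *Nsd1* (0.994), *Alas2* (0.992), *Nox4* (0.992) and *Adra1b* (0.991). For *Mup20* they were *Slc11a2* (0.994), *Pde3b* (0.993), *Rnf43* (0.991), *Trim44* (0.989) and *Mir22hg* (0.989). For *Cux2*, whose counts are few, they were *Pianp* (0.991), *Tbx20* (0.984), *Rbms3* (0.976), *Lzts2* (0.970) and *Zmym3* (0.970). With 6 points and 12135 genes, high values of r are found by selection alone, and they are given as a description.

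The levels of different genes can be set side by side only per length, for which the deposited FPKM was used. The order of mean FPKM over the 6 tumors was *Mup20* (3213 ± 1556, SD), *Mup3* (491 ± 267), *Ghr* (13.5 ± 4.77), *Igf1* (11.8 ± 6.41), *Igfals* (10.1 ± 5.70), *Stat5b* (8.70 ± 0.717), *Bcl6* (4.87 ± 2.13), *Cish* (0.774 ± 0.208), *Socs2* (0.536 ± 0.180) and *Cux2* (0.043 ± 0.0257), n = 6 for each. *Mup20* was above *Mup3*, and *Mup3* above *Ghr*, in 6 of 6 tumors. The neighbors *Ghr*, *Igf1*, *Igfals* and *Stat5b* did not differ beyond their spread, with the higher mean in 5 of 6, 5 of 6 and 4 of 6 tumors. The neighbors *Cish* and *Socs2* held their order in 5 of 6 tumors. The length behind FPKM differed from the GENCODE exon length by a median factor of 1.25 over 8963 genes, so small differences in FPKM between genes are uncertain.

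The other genes of growth hormone receptor signalling had a smaller median range between tumors than all genes tested, and some varied more. Of 25 such genes, all tested, 16 had a negative and 9 a positive log2 fold change with a median of −0.09. None passed the adjusted test and 0 passed an unadjusted p under 0.05 in edgeR. In 4 of 25 every LKO tumor was lower, beside 6.59% of all genes. Their median range was 0.58 on the log2 scale, with single genes between 0.20 and 1.72, beside a median of 0.76 for all genes, and 2 of 25 had f/f 7 and LKO 93 as the lowest pair.

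The kinase gene *Jak1* was at 161, 168 and 172 CPM in f/f tumors and at 164, 170.3 and 139 CPM in LKO tumors, with a log2 fold change of −0.08. *Jak2*, the gene of the kinase that the bound receptor activates, was at 32.6, 28.8 and 32.0 CPM in f/f tumors. In LKO tumors it was at 26.4, 27.7 and 21.5 CPM, each lower than any f/f tumor (log2 fold change −0.30, SE 0.15, edgeR adjusted p 0.776). *Stat3* was between 87.5 and 142 CPM and the adaptor gene *Shc1* between 69.6 and 97.1 CPM. The insulin receptor substrates went in opposite directions without passing the test, *Irs2* with a log2 fold change of −0.61 (SE 0.27, edgeR adjusted p 0.766) and *Irs1* with 0.46 (SE 0.20, adjusted p 0.768). The inhibitor gene *Socs3* had a log2 fold change of −0.64 (SE 0.31, edgeR adjusted p 0.775), and its level was highest in f/f 7 (28 CPM).

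In the IGF system, 12 of 14 other genes were tested, 7 with a negative and 5 with a positive log2 fold change and a median of −0.29. None passed the adjusted test in edgeR, and 0 passed an unadjusted p under 0.05. *Igfbp3*, whose product joins IGF1 and the acid-labile subunit in the blood complex, was at 78.7, 31.0 and 22.5 CPM in f/f tumors and at 19.1, 22.9 and 30 CPM in LKO tumors. It was highest in f/f 7, the tumor lowest in *Igf1*, and its log2 fold change was −0.87 (SE 0.45, edgeR adjusted p 0.796).

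*Igfbp1* and *Igfbp4*, which encode abundant binding proteins, were at 574 to 1473 CPM and 999 to 1698 CPM, and *Igfbp2* was at 240.0 to 662 CPM. *Igf2*, the fetal growth factor, remained low with 0.286 to 2.17 CPM and a log2 fold change of −1.23 (SE 0.57, edgeR adjusted p 0.774). *Igfbp5* was between 2.31 and 15 CPM, with its lowest level in f/f 7. None of the genes named in this paragraph separated the groups. In the whole list, 1 of the 12 genes tested was lower in every LKO tumor, beside 6.59% of all genes.

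Male-biased liver genes, many of which depend on pulsed growth hormone and STAT5B, varied more than most genes. Of 23 such genes besides *Mup3*, *Mup20* and *Bcl6*, 21 were tested, 13 with a negative and 8 with a positive log2 fold change. None passed the adjusted test in edgeR, and 0 passed an unadjusted p under 0.05. The median log2 fold change was −0.15, and it lay between −0.55 and 0.44 when 1 tumor was left out. Their median range across tumors was 3.10 on the log2 scale, and 11 of 21 had f/f 7 and LKO 93 as the lowest pair, beside 11.5% of all genes. The list holds further *Mup* genes, such as *Mup7*, which shares 67.1% of its windows of 150 bases with close copies. The 21 genes are therefore not all independent.

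*Serpina1e*, a serpin of plasma, was at 1944, 10384 and 4455 CPM in f/f tumors and at 6473, 1841 and 2344 CPM in LKO tumors, and *Cyp2d9*, a steroid hydroxylase, was lowest in LKO 93 (273 CPM) and f/f 7 (348 CPM). *Serpina12* was lower in every LKO tumor (345 to 450.1 CPM) than in any f/f tumor (498 to 580.3 CPM), with a log2 fold change of −0.39 (SE 0.18, edgeR adjusted p 0.772). Within the urinary protein family, *Mup21* had a log2 fold change of 1.10 (SE 0.49, edgeR adjusted p 0.766) and *Mup7* one of −2.06 (SE 1.01, adjusted p 0.776). *Mup7* was at 14.3, 6.90 and 38.6 CPM in f/f tumors and at 12.2, 0.676 and 1.76 CPM in LKO tumors, so the groups overlapped.

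**Figure D5:**
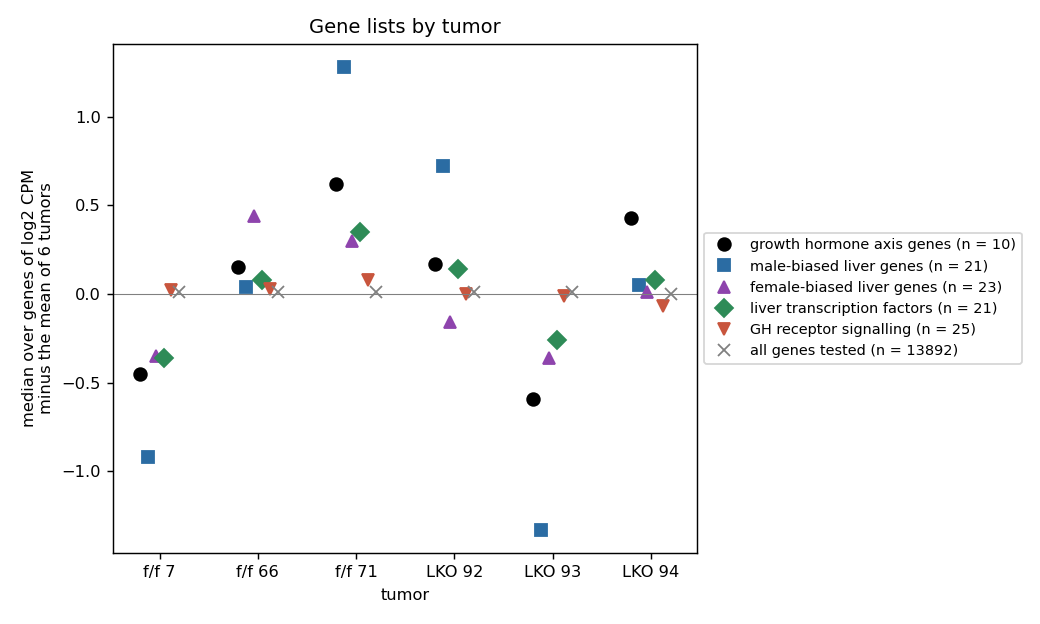
Median over the genes of each list of log2 CPM minus the mean of the 6 tumors (y axis) in each tumor (x axis), with 1 symbol per list, shifted sideways so that they can be told apart. The male-biased genes are lowest in f/f 7 (−0.92) and LKO 93 (−1.33), the 10 growth hormone axis genes have the same low tumors (−0.45 and −0.59), and the genes of receptor signalling stay between −0.07 and 0.08.

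Female-biased liver genes did not mirror the male-biased ones. Their median deviation from the mean of the tumors was −0.35 in f/f 7 and −0.36 in LKO 93 on the log2 scale. By this median they were also low where male-biased genes were low (−0.92 and −1.33). Gene by gene this held for few, and 4 of 23 tested (17.4%) had f/f 7 and LKO 93 as the lowest pair. The share was 11.5% for all genes, and 11 of 21 male-biased genes had this pair. Of 28 such genes besides *Cux2*, 23 were tested, with a median log2 fold change of −0.47. None passed the adjusted test in edgeR, and 2 were lower at an unadjusted p under 0.05, beside 4.37% of all genes. They were *Cyp2c40* (−2.04, SE 0.73, adjusted p 0.684) and *Cyp2c69* (−0.84, SE 0.34, adjusted p 0.742). *Cyp2c40* was at 39.3 CPM in f/f 7 and between 3.16 and 8.34 CPM in the others. *Cyp3a41a*, *Cyp3a41b* and *Sult3a1*, which mark the female liver, had no count in any tumor.

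*Cyp2a4*, a female-biased steroid hydroxylase, was at 3648, 4182 and 3330.4 CPM in f/f tumors and at 4533, 3997 and 459 CPM in LKO tumors. LKO 94 stood apart from the other 5. *Cyp2b9* was between 44.3 and 199.7 CPM and *Abcd2* between 86.7 and 157 CPM, with overlapping groups. *Vldlr* was highest in LKO 93 (6.63 CPM) and between 1.02 and 1.76 CPM in the others.

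Liver transcription factors, which act on the same target genes, shared the low tumors in part. Of 21 such genes, all tested, 10 had f/f 7 and LKO 93 as the lowest pair. So did 5 of 12 hepatocyte markers and 5 of 10 endothelial cell markers, beside 11.5% of all genes. It was the lowest pair for 1 of 12 stellate cell and fibroblast markers, 0 of 12 leukocyte and 0 of 12 macrophage markers. The pattern was thus not limited to the growth hormone axis or to lists of hepatocyte genes. *Hnf4a*, a central regulator of hepatocyte genes, is on both the hepatocyte and the transcription factor list and is counted in both. It was lowest in f/f 7 and LKO 93, but at 622 to 759 CPM in all tumors its range was only 0.29 on the log2 scale. *Rxra* was at 227, 354 and 438 CPM in f/f tumors and at 386, 338 and 359 CPM in LKO tumors, and *Cebpa* was between 166 and 296 CPM with a log2 fold change of 0.42 (SE 0.20, edgeR adjusted p 0.775).

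None of the 21 transcription factors passed the adjusted test in edgeR, and at an unadjusted p under 0.05 there were 2, beside 6.56% of all genes in either direction. *Onecut2*, a factor of liver and bile duct development, was at 14.0, 12.2 and 23.8 CPM in f/f tumors and at 27.7, 40.3 and 35.0 CPM in LKO tumors, higher in all LKO tumors (log2 fold change 1.04, SE 0.28, edgeR adjusted p 0.592). *Prox1* was at 72.9, 98.3 and 101 CPM in f/f tumors and at 73.4, 48.8 and 55.6 CPM in LKO tumors (−0.62, SE 0.21, edgeR adjusted p 0.648), and its groups overlapped.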

How the data were processed

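RNA of 3 *Prmt3* f/f and 3 *Prmt3* LKO tumors was sequenced as 150 bp read pairs. The authors aligned the reads to GRCm38 with HISAT2 and deposited whole-number counts per gene, with FPKM values (fragments per kilobase of length, scaled to the library) beside them. The submitters' processing notes also name bcl2fastq 2.19, HISAT2 2.0.4 and StringTie 1.3.0. The counting tool, annotation and use of strand are not given in the sources used here. The deposited counts are not normalized, and 0 value columns were left unused.

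Counts were filtered with filterByExpr (minimum count 10, minimum total 15), scaled by TMM and fitted in R 4.3.3 with edgeR 4.0.16 (quasi-likelihood F test), and p-values of 13892 genes were adjusted by Benjamini-Hochberg. The SE of a log2 fold change was derived as its absolute value divided by the square root of the F statistic. The pipeline was tested on simulated data. An exact two-sided permutation over the 6 tumors, on log2 CPM with 2 as prior count, was run for single genes. Alternatives were DESeq2 1.42.0, limma-voom (limma 3.58.1), the edgeR exact test, other scalings and filters, FPKM with a pseudocount of 1, and leaving out each tumor. Total counts of 18440244 to 27976598 make 3 counts, taken as the floor, 0.107 to 0.163 CPM, for counting error only.

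The 10 genes, the lists and the tests were chosen with earlier results of these data known. The lists were written by hand. Besides the 10 genes and *Prmt3*, the text names the 3 most abundant and the 3 with the smallest unadjusted p of each list that is not a cell type list, since none passed the test, and the 5 genes most like *Ghr*, *Igf1*, *Mup20* and *Cux2* with *Mup* and predicted genes passed over. *Jak2* was added after its values were seen. Cell type lists are given by totals and ranges, apart from single markers named after their values were seen. Promoter sequences are from RefSeq (GRCm38.p6), and gene bounds and windows of 150 bases from GENCODE on the same build.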

Additional observations from a re-analysis of the deposited data

How the results depend on the processing

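Over all genes, 0 were lower and 0 higher in edgeR, against 43 and 9 in DESeq2, 35 and 5 in the edgeR exact test, 2 lower without the filter, and 246 and 44 where the p was left unadjusted and the fold limits kept, an alternative chosen after seeing the data. Of the 10 genes, that last limit called 1 lower (*Bcl6*), and no other alternative called any. With 1 tumor left out, the log2 fold change of *Bcl6* was −1.38 to −0.80 and that of *Ghr* 0.02 to 0.62, *Mup20* 0.07 to 1.26 and *Socs2* −0.76 to −0.23. The direction of the others changed, with ranges of −0.12 to 0.0035 for *Stat5b*, −0.49 to 0.59 for *Igf1*, −0.79 to 0.05 for *Igfals*, −0.34 to 0.16 for *Cish*, −0.21 to 0.97 for *Mup3* and −1.17 to 0.25 for *Cux2*. Tumors whose absence turned the direction were f/f 71 for *Stat5b* (0.0035), f/f 71 (0.59) and LKO 93 (0.28) for *Igf1*, LKO 93 for *Igfals* (0.05), f/f 7 (0.03) and LKO 92 (0.16) for *Cish*, f/f 7 (−0.21) and LKO 94 (−0.03) for *Mup3*, and f/f 66 (0.25), LKO 92 (0.22) and LKO 93 (0.16) for *Cux2*. *Igf1* was at 0.14 in limma-voom and 0.05 on FPKM. Without both f/f 7 and LKO 93, *Stat5b* was at 0.001 and *Cux2* at 0.0022. Adjusted p of *Bcl6* ran from 0.142 to 1.0 over its alternatives.

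The 2 tumors farthest from the median of the first gene were left out, and they differed between pairs. Without f/f 7 and LKO 93, r was 0.68 for *Ghr* and *Igf1* and −0.14 for *Ghr* and *Igfals*. It was 0.62 for *Stat5b* and *Socs2* without f/f 66 and 71, and −0.01 for *Socs2* and *Cish* without f/f 66 and LKO 92. For *Bcl6* and *Cux2* it was 0.62 without LKO 93 and 94. With FPKM and all 6 tumors, r for *Stat5b* and *Socs2* was 0.05. The cause of these changes was not tested. *Cux2* gave no value with a minimum mean of 1 CPM or of 0.1 FPKM, since it lies under both. Low counts and 3 tumors a group limit statements on *Cux2*, and the number of tumors limits the rest. No paired analysis was possible because the groups share no replicate number.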

Other observations

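The genes in these paragraphs were picked once their values had been seen, and no explanation is given. *Nr1i3*, a nuclear receptor that regulates drug metabolism, was at 8.86, 40.9 and 53.7 CPM in f/f 7, 66 and 71 and at 40.4, 9.92 and 51.8 CPM in LKO 92, 93 and 94. It was lowest in the same tumors as *Ghr*, and its log2 fold change was −0.02 (SE 0.72, edgeR adjusted p 0.998). *Zbtb20*, a repressor of the fetal gene *Afp* in adult liver, was at 39.8, 38.6 and 6.46 CPM in f/f tumors and at 33.1, 2.34 and 2.66 CPM in LKO tumors. It was high in 3 tumors and low in the other 3, with both kinds in each genotype, and its log2 fold change was −1.16 (SE 1.07, edgeR adjusted p 0.931).

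In LKO 94, the tumor low in *Cyp2a4*, another gene of the female-biased list was at its highest. *Cyp4a14*, a fatty acid hydroxylase, was at 36.5 CPM there and between 1.29 and 25.8 CPM in the others, with an edgeR adjusted p of 0.987 between the genotypes.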
